A study of Mus musculus with 9 samples.

Results

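Clock, Arntl, Npas2, Rora, Nfil3, Csnk1d, Csnk1e and Btrc are 8 genes of the mammalian circadian clock: its activators, factors that set the level of those activators, and enzymes that act on the PER and CRY repressors. They were taken by symbol from the 47728 genes counted in each library, and all 8 passed the filter on low counts, which kept 13094 genes. The cells were C2C12, mouse myoblasts that stop dividing and form myotubes when serum is reduced, with a Cry1 knockdown, with a Cry2 knockdown or as control, and their polyA RNA was sequenced. Each genotype was collected at days 0, 3 and 5 after a change from fetal bovine serum to horse serum with insulin, transferrin and selenium. Every genotype had 1 library per day, 9 in all, so that the 3 libraries of a genotype are 3 days and the 3 libraries of a day are 3 genotypes. The error of each test below is therefore the departure from the fitted effects of genotype and day, not a spread between replicates. The labels used here state neither how the knockdowns and the control were made, nor the clock time of collection, nor whether a line was a single clone.

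In the clock, CLOCK and BMAL1, the protein of Arntl, bind DNA as a pair at E-boxes and switch on the Per, Cry and Nr1d genes. PER and CRY proteins then shut off that pair, and casein kinases and ubiquitin ligases set how long the repressors last. NPAS2 is a relative of CLOCK that can take its place, RORA activates Arntl through ROR elements, and NFIL3 represses genes with D-boxes. In muscle, this clock drives daily rhythms of genes for metabolism and for myogenic factors such as Myod1. CSNK1D, CSNK1E and BTRC are best known for acting on PER proteins, the partners of the cryptochromes, rather than on the cryptochromes themselves.

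Library totals ran from 4731020 to 6412279 counts, the lowest being the Cry2 knockdown at day 3. All levels are normalised CPM (counts scaled to library size) with TMM factors, and a count of 0 would allow 0.44 to 0.635 CPM by library, counting error only. No member was at 0 in any library. Of the 3 genotypes, the Cry1 knockdown had the least Cry1 on each day, with 8.30, 6.65 and 8.12 CPM at days 0, 3 and 5 against 20.5, 15.8 and 17.4 CPM in control cells. The Cry2 knockdown likewise had the least Cry2, with 7.27, 8.26 and 16.6 CPM against 19.2, 39.7 and 48.9 CPM in control cells. Summed CPM of 5 differentiated muscle markers (Myog, Myh3, Ckm, Acta1 and Tnnt3) was 799, 15205 and 15839 in the Cry1 knockdown, 179, 12426 and 16691 with Cry2 knocked down, and 273, 10378 and 15527 in control cells. Summed endothelial markers stayed between 0.733 and 3.02 CPM and blood markers between 0.336 and 2.04 CPM. Adipocyte markers summed to 8.68 to 36.2 CPM, with Adipoq at 0 in all 9 libraries. In bulk RNA, fewer cells of a kind and less RNA per cell cannot be told apart.

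The promoter windows of Arntl and Nfil3 are shown because these were the members in which a searched clock motif was found. RefSeq windows of 250 bases before to 50 bases after each start (GRCm38.p6) were matched for 6 members, namely Clock, Arntl, Npas2, Rora, Nfil3 and Csnk1e. They were searched on both strands for the E-box CACGTG, the E-prime box CACGTT, the ROR element TAGGTCA or TGGGTCA, and the D-box TTATGTAA or TTACGTAA. Each sequence below holds 30 bases, 5′ to 3′ on the strand of the gene, with the ROR element in capitals.
Arntl: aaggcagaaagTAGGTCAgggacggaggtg
Nfil3: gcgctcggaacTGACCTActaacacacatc
The Arntl stretch is chr7:113207530-113207559 on the plus strand, with the element 30 bases after the start of the second of 2 RefSeq promoters. The Nfil3 stretch is chr13:52981033-52981062 on the minus strand, with the element read on the opposite strand 12 bases before the start. A ROR element was present in 6.45% of all 32851 promoter windows, an E-box in 7.15%, an E-prime box in 4.68% and a D-box in 1.06%. These matches are letters in a window and show no binding.

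Per kilobase of exon, the members covered a wide range of levels, and the kinases stood at the top. Csnk1d averaged 42.0 CPM per kilobase over the 9 libraries, with a range of 35.9 to 51.8. Csnk1e followed at 21.4 CPM per kilobase (18.3 to 24.2), and its range overlapped that of Nfil3, at 19.2 (7.89 to 33.4). Nfil3 in turn overlapped Clock, at 7.53 CPM per kilobase (6.63 to 8.63). Arntl averaged 3.95 (3.01 to 5.49) and Btrc 1.94 (1.57 to 2.38), with no overlap with each other or with their neighbours in the order. Rora, at 0.503 CPM per kilobase (0.13 to 1.34), and Npas2, at 0.451 (0.184 to 1.25), were lowest and did not differ beyond their ranges.

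**Figure D1:**
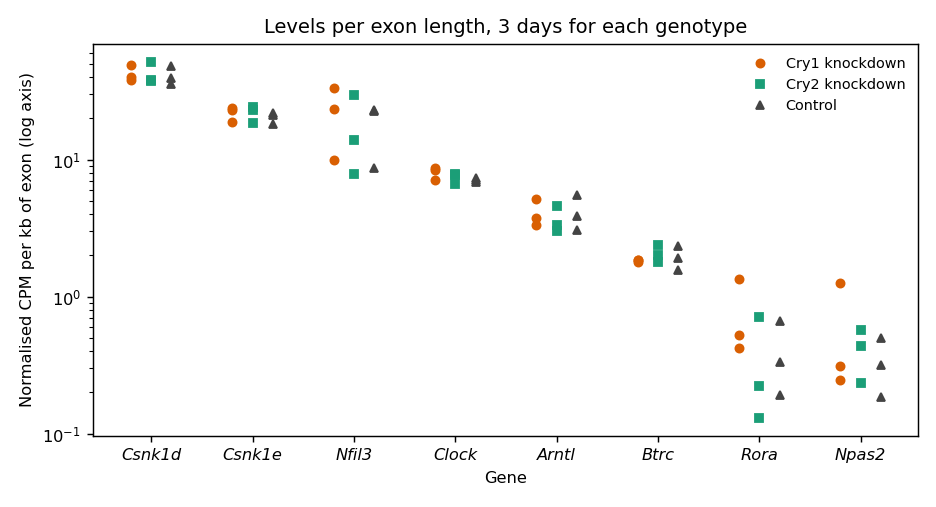
Level of each member per kilobase of merged exon (normalised CPM per kilobase, log axis) in the 9 libraries, with points by genotype. Csnk1d is highest at 35.9 to 51.8 and does not overlap any other member, and Rora and Npas2 share the bottom of the scale.

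**Figure D2:**
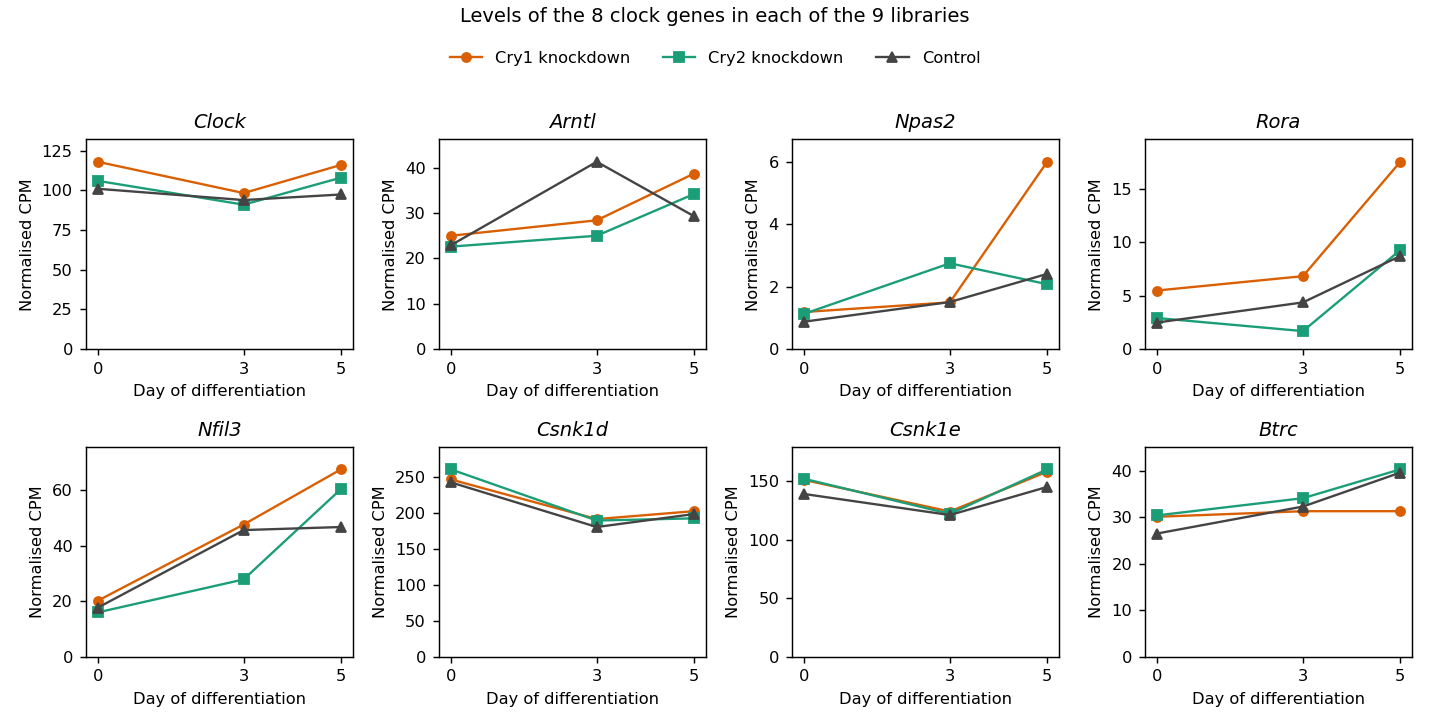
Normalised CPM of the 8 members at days 0, 3 and 5, with a line for each genotype and 1 library at each point. Nfil3 climbs in all 3 genotypes, Csnk1d is highest at day 0 in each, and among the Arntl lines that of the control alone peaks at day 3.

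Clock encodes the DNA-binding partner of BMAL1 with acetyltransferase activity, and lies at chr5:76209868-76304792 on the minus strand (mm10). It had 118, 98.3 and 116 CPM at days 0, 3 and 5 with Cry1 knocked down, 106, 91.0 and 108 CPM with Cry2 knocked down, and 101, 93.9 and 97.4 CPM in control cells. Every genotype was lowest at day 3, and the day 3 levels did not overlap those of day 0. The share of all genes without such overlap is not given here, for this or the other members. The log2 fold change of day 3 against day 0 was -0.20 ± 0.07 (SE), with an adjusted p of 0.0524 in edgeR's quasi-likelihood test, just short of the threshold of 0.05. Without the control at day 3 the adjusted p was 0.0326, and with RLE size factors it was 0.0477. Day 5 differed from day 0 by -0.02 ± 0.07 (adjusted p = 0.856).

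Arntl, at chr7:113207465-113314126 on the plus strand, encodes BMAL1, the clock component whose loss alone stops rhythms in mice. Its levels were 25.0, 28.4 and 38.7 CPM at days 0, 3 and 5 with Cry1 knocked down, 22.6, 25.0 and 34.2 CPM with Cry2 knocked down, and 22.9, 41.3 and 29.3 CPM in control cells. Both knockdowns were highest at day 5 and the control at day 3, while at day 0 the 3 genotypes lay within 22.6 to 25.0 CPM. Arntl rose on day 5 against day 0, by 0.54 ± 0.18 on the log2 scale (adjusted p = 0.0298), with all 3 day 5 levels above all 3 day 0 levels. That call held in 4 of the 9 fits that each left out 1 library. It was lost without the Cry1 knockdown at day 0 (0.0644) or day 5 (0.138), the Cry2 knockdown at day 0 (0.0587) or day 5 (0.119), or the control at day 0 (0.119). Day 3 differed from day 0 by 0.42 ± 0.18 (adjusted p = 0.0798). That adjusted p was 0.0374 with no filter on low counts and 0.0443 without the Cry2 knockdown at day 3. Day 5 differed from day 3 by 0.11 ± 0.18 (adjusted p = 0.67, and 0.0451 without the control at day 3).

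Npas2, at chr1:39193731-39363236 on the plus strand, was the least abundant member by CPM, with 6 to 34 counts per library. It had 1.19, 1.5 and 6.0 CPM at days 0, 3 and 5 with Cry1 knocked down, 1.13, 2.75 and 2.08 CPM with Cry2 knocked down, and 0.88, 1.51 and 2.41 CPM in control cells. The Cry1 knockdown at day 5 stood above all other libraries. Npas2 rose on day 5 against day 0, by 1.66 ± 0.46 (adjusted p = 0.013), and every later level was above every day 0 level. Without the Cry1 knockdown at day 5 the adjusted p was 0.105, and without that at day 0 it was 0.0693.

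Rora, an orphan nuclear receptor that activates Arntl in competition with the REV-ERB repressors, spans chr9:68653786-69388246 on the plus strand. It had 5.48, 6.82 and 17.5 CPM at days 0, 3 and 5 with Cry1 knocked down, 2.91, 1.69 and 9.26 CPM with Cry2 knocked down, and 2.49, 4.37 and 8.70 CPM in control cells. In each genotype day 5 was highest, and no day 5 level overlapped an earlier one. Rora rose on day 5 against day 3 by 1.46 ± 0.27 (adjusted p = 0.00493), and on day 5 against day 0 by 1.71 ± 0.27 (adjusted p = 0.000529), a 3.27-fold difference. Both calls held with any 1 library left out, but without the genotype term the adjusted p of day 5 against day 3 was 0.061. Between day 3 and day 0 the difference was 0.24 ± 0.30 (adjusted p = 0.516).

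Nfil3, a basic leucine zipper repressor that competes with DBP, TEF and HLF at D-boxes, lies at chr13:52967209-52981073 on the minus strand. Its levels were 20.2, 47.7 and 67.6 CPM at days 0, 3 and 5 with Cry1 knocked down, 16.0, 27.9 and 60.5 CPM with Cry2 knocked down, and 17.7, 45.7 and 46.8 CPM in control cells. It climbed at each step in each genotype, by little between days 3 and 5 in control cells. Nfil3 rose on day 3 against day 0 by 1.17 ± 0.18 (adjusted p = 0.000633), and on day 5 against day 0 by 1.70 ± 0.18 (adjusted p = 4.04e-05), or 3.25-fold. Both calls held with any 1 library left out. The rise on day 5 against day 3, 0.53 ± 0.17 (adjusted p = 0.0408), was lost in 7 of the 9 such fits, with adjusted p up to 0.17, and was kept without the control at day 3 or at day 5.

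Csnk1d, at chr11:120961749-120991330 on the minus strand, encodes casein kinase 1 delta, which phosphorylates PER proteins. It had 246, 191 and 202 CPM at days 0, 3 and 5 with Cry1 knocked down, 260, 189 and 192 CPM with Cry2 knocked down, and 242, 180 and 198 CPM in control cells. Day 0 was highest in every genotype, with no overlap with either later day. The day 5 levels also lay above all day 3 levels, though that difference (0.08 ± 0.07, adjusted p = 0.44) was not called. Csnk1d fell on day 3 against day 0 by 0.42 ± 0.07 on the log2 scale (adjusted p = 0.00115), and on day 5 against day 0 by 0.34 ± 0.07 (adjusted p = 0.00292). Both calls held with any 1 library left out.

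Csnk1e encodes casein kinase 1 epsilon, the close relative of CSNK1D that acts on the same PER sites, and lies at chr15:79417856-79455566 on the minus strand. Its levels were 151, 124 and 158 CPM at days 0, 3 and 5 with Cry1 knocked down, 152, 122 and 160 CPM with Cry2 knocked down, and 139, 121 and 145 CPM in control cells. All 3 genotypes dipped at day 3 and stood above their day 0 level at day 5. Csnk1e fell on day 3 against day 0, by 0.27 ± 0.07 (adjusted p = 0.00929), and rose on day 5 against day 3, by 0.34 ± 0.07 (adjusted p = 0.00802). The fall was lost without the Cry2 knockdown at day 3 (adjusted p = 0.0541) and in DESeq2 (0.0618), while the rise held with any 1 library left out. An antisense gene, Gm16059, covers 4.05% of the Csnk1e exon bases. It also holds the 5.28% of the 50-base words of Csnk1e that occur in other genes, on either strand. The kit named in the labels does not mark strand, so reads of Gm16059 in that stretch cannot be told apart from those of Csnk1e.

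The ratio of Csnk1d to Csnk1e per kilobase was lower at each later day in every genotype. It was 2.13, 2.02 and 1.67 at days 0, 3 and 5 in the Cry1 knockdown, 2.24, 2.04 and 1.58 in the Cry2 knockdown, and 2.29, 1.96 and 1.79 in control cells. The difference between the kinases was not tested.

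Btrc, the F-box protein that recognises phosphorylated PER for ubiquitination, spans chr19:45363734-45530013 on the plus strand. It had 30.1, 31.3 and 31.3 CPM at days 0, 3 and 5 with Cry1 knocked down, 30.4, 34.1 and 40.3 CPM with Cry2 knocked down, and 26.5, 32.3 and 39.6 CPM in control cells. The Cry1 knockdown stayed nearly level while the other 2 genotypes ended higher. All day 3 levels of Btrc lay above all day 0 levels, though that difference (0.165 ± 0.11, adjusted p = 0.251) was not called. Btrc rose on day 5 against day 0, by 0.35 ± 0.11 (adjusted p = 0.0251). The call was lost without the Cry2 knockdown at day 0 (0.0751) or day 5 (0.086) or the control at day 0 (0.126) or day 5 (0.118), and its adjusted p was 0.113 in DESeq2 and 0.0537 with no filter on low counts. Gm6807, on the opposite strand, covers 1.39% of its exon bases and holds the 3.06% of its 50-base words that occur in other genes.

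Counted together, 5 of the 8 members rose on day 5 against day 0 (Nfil3, Rora, Npas2, Btrc and Arntl) and 1 fell (Csnk1d). Of all 13094 genes tested, 56.2% were called in that comparison, 28.3% higher and 27.9% lower, and the median log2 change was 0.44 for the members and 0.01 for all genes. On day 3 against day 0, 1 member rose (Nfil3) and 2 fell (Csnk1d and Csnk1e), where 51.1% of all genes were called, 25.4% higher and 25.7% lower. On day 5 against day 3, 3 members rose (Rora, Csnk1e and Nfil3) and none fell, where 27.9% of all genes were called, with 14.7% of all genes higher, and 5267 had an unadjusted p under 0.05. Called in either direction, 6, 3 and 3 of the 8 members in these comparisons stood against 56.2%, 51.1% and 27.9% of all genes, counts too small to set the members apart. All 5 differentiated muscle markers rose on day 3 and on day 5 against day 0, and their part in the members' changes was not tested.

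**Figure D3:**
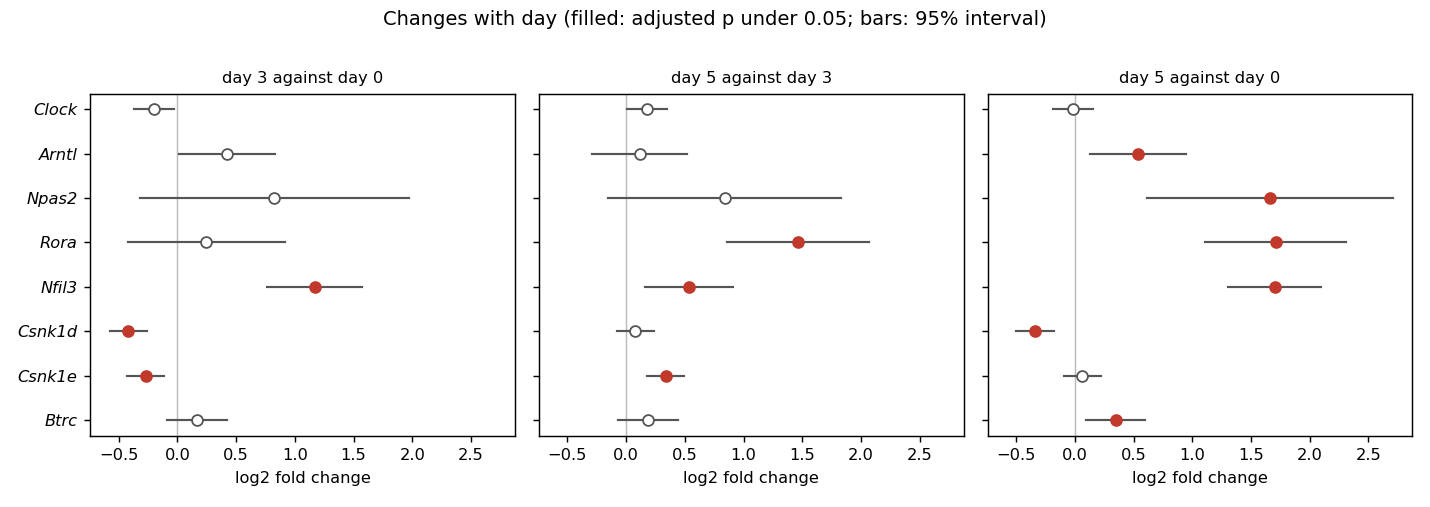
Log2 fold change of each member between days in the fit over all 9 libraries, with 95% confidence intervals, filled where the adjusted p was under 0.05. Nfil3 and Rora lie farthest to the right on day 5 against day 0, at 1.70 and 1.71, and Csnk1d lies left of 0 at -0.34.

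Between genotypes, averaged over the 3 days, Rora was the member that differed. Its log2 fold change in the Cry2 knockdown against the Cry1 knockdown was -1.14 ± 0.27 (95% interval -1.75 to -0.52, adjusted p = 0.037), or 0.454-fold, and it was lower at 3 of 3 days. Of the 8 members this was the sole call, where 7.93% of all genes were called and 3.69% were called lower. The call held in 1 of the 9 fits that left out a library, the one without the control at day 3 (0.0312). In the other 8 the adjusted p was between 0.0508 and 0.131, and it was 0.0502 in DESeq2. The lowest level rested on 8 counts, in the Cry2 knockdown at day 3, the shallowest library.

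Ckm, a marker of differentiated muscle that encodes creatine kinase, moved the same way, with a log2 fold change of -0.84 ± 0.18 in the Cry2 knockdown against the Cry1 knockdown (adjusted p = 0.0256, past the threshold in 5 of the 9 fits without 1 library). It was the sole call of the 5 differentiated muscle markers, which were summed at 179, 12426 and 16691 CPM with Cry2 knocked down at days 0, 3 and 5 and at 799, 15205 and 15839 CPM with Cry1 knocked down. Their part in the Rora difference was not tested.

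In the Cry1 knockdown against control, none of the 8 members passed the threshold in edgeR, where 2.67% of all genes did. At an unadjusted p under 0.05 there were 2 members, Rora and Clock, and 2492 genes. Rora was higher at 3 of 3 days, by 0.92 ± 0.26 (adjusted p = 0.105), and Clock at 3 of 3 days, by 0.18 ± 0.07 (adjusted p = 0.229). With no filter on low counts, Rora had an adjusted p of 0.0258. All 5 differentiated muscle markers had higher values in the Cry1 knockdown than in control cells (median log2 difference 0.74). Ckm was called (0.84 ± 0.18, adjusted p = 0.0452), as was the myoblast marker Pax7 (0.92 ± 0.20, adjusted p = 0.048). Pax7 was the sole call of the 5 myoblast markers. Of these 5, 4 had higher values (median log2 difference 0.16), while Myf5 was lower on each day. The Ckm call held in 2 of the 9 fits without 1 library (adjusted p up to 0.211), and the Pax7 call in 1 of 9 (up to 0.185). The part of these markers in the Rora values was not tested. The 95% interval for Rora ran from 0.32 to 1.52, and that for Csnk1d from -0.12 to 0.20. Npas2 differed by 0.74 ± 0.46 (adjusted p = 0.42), and Arntl by -0.02 ± 0.18 (adjusted p = 0.968).

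Against control, the Cry2 knockdown called none of the 8 members either, where 0.084% of all genes were called, and no member had an unadjusted p under 0.05, as 1604 genes did. The widest difference was that of Npas2, 0.34 ± 0.49 (adjusted p = 0.834), followed by Rora at -0.22 ± 0.29 (adjusted p = 0.819). Csnk1e was higher at 3 of 3 days, by 0.10 ± 0.07 (adjusted p = 0.631), and so was Btrc, by 0.10 ± 0.11 (adjusted p = 0.786). For Arntl the interval of the difference averaged over days ran from -0.60 to 0.22. Its log2 ratios to control within days 0, 3 and 5 were -0.02, -0.72 and 0.22. The interval therefore sets no limit on the difference at a single day. DESeq2 likewise called no member in either knockdown against control.

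Nfil3 in the Cry2 knockdown against the Cry1 knockdown was lower at 3 of 3 days, by -0.39 ± 0.17 on the log2 scale (adjusted p = 0.188). The casein kinases lay close to 0 there, with intervals of -0.16 to 0.16 for Csnk1d and -0.15 to 0.16 for Csnk1e. Clock and Arntl were lower at 3 of 3 days, by -0.13 ± 0.07 (adjusted p = 0.319) and -0.17 ± 0.18 (adjusted p = 0.611). These 3 genotype comparisons share libraries and are not independent of each other. The share of all genes that differ in the same direction at 3 of 3 days is not given here.

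**Figure D4:**
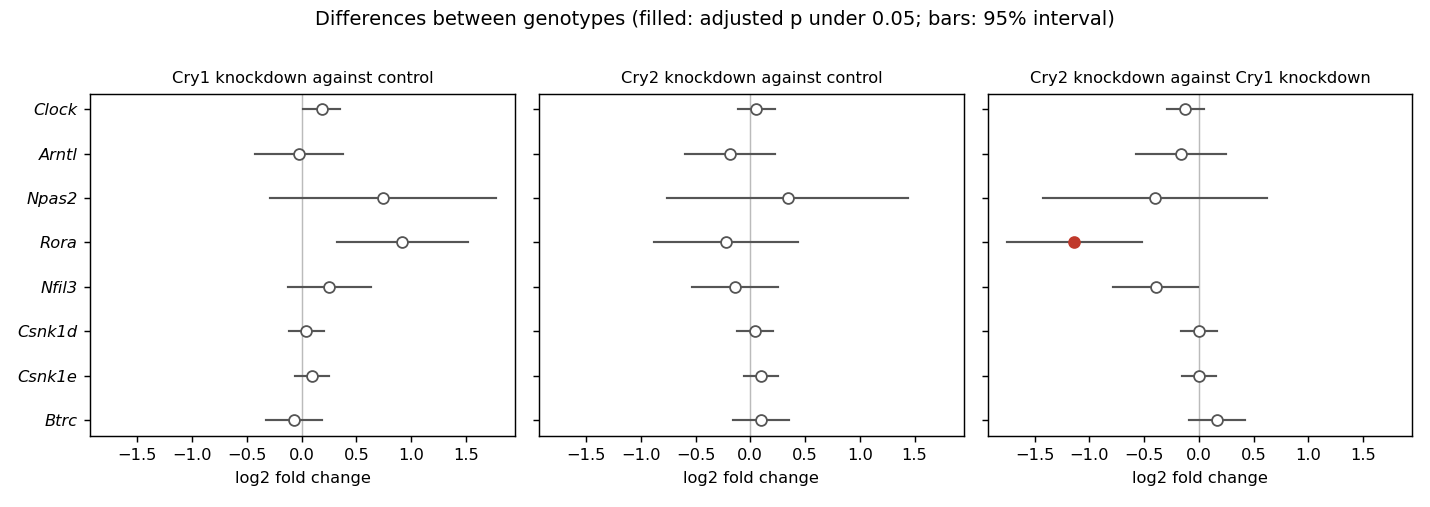
Log2 fold change of each member between genotypes, averaged over days 0, 3 and 5, with 95% confidence intervals, filled where the adjusted p was under 0.05. Rora in the Cry2 knockdown against the Cry1 knockdown, at -1.14, is the sole filled point, and Npas2 has the widest intervals.

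Within single days, the knockdowns can be set against control only as pairs of libraries, with intervals that cover counting error alone and with no test between conditions. At day 3 Arntl had 28.4 CPM with Cry1 knocked down and 25.0 CPM with Cry2 knocked down, against 41.3 CPM in control cells, log2 ratios of -0.54 (-0.83 to -0.25) and -0.72 (-1.06 to -0.40). At day 5 the log2 ratio was 0.40 (0.10 to 0.71) in the Cry1 knockdown and 0.22 (-0.09 to 0.54) in the Cry2 knockdown, an interval that spans 0. Both day 3 ratios use the same control library.

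Nfil3 in the Cry2 knockdown also lay below control at day 3, with a log2 ratio of -0.71 (-1.02 to -0.40), and above it at day 5, at 0.37 (0.13 to 0.61). In the Cry1 knockdown Nfil3 was close to control at day 3, at 0.06, and above it at day 5, at 0.53 (0.30 to 0.76). Rora in the Cry1 knockdown had log2 ratios of 1.09 (0.27 to 2.06), 0.62 (-0.10 to 1.41) and 0.99 (0.49 to 1.54) at days 0, 3 and 5. Rora ratios in the Cry2 knockdown were 0.21 (-0.82 to 1.27), -1.28 (-2.72 to -0.18) and 0.09 (-0.52 to 0.70), with overlapping intervals and 8 counts behind the day 3 value. Npas2 in the Cry1 knockdown at day 5 had 34 counts against 13 in control cells, a log2 ratio of 1.26 (0.36 to 2.36).

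**Figure D5:**
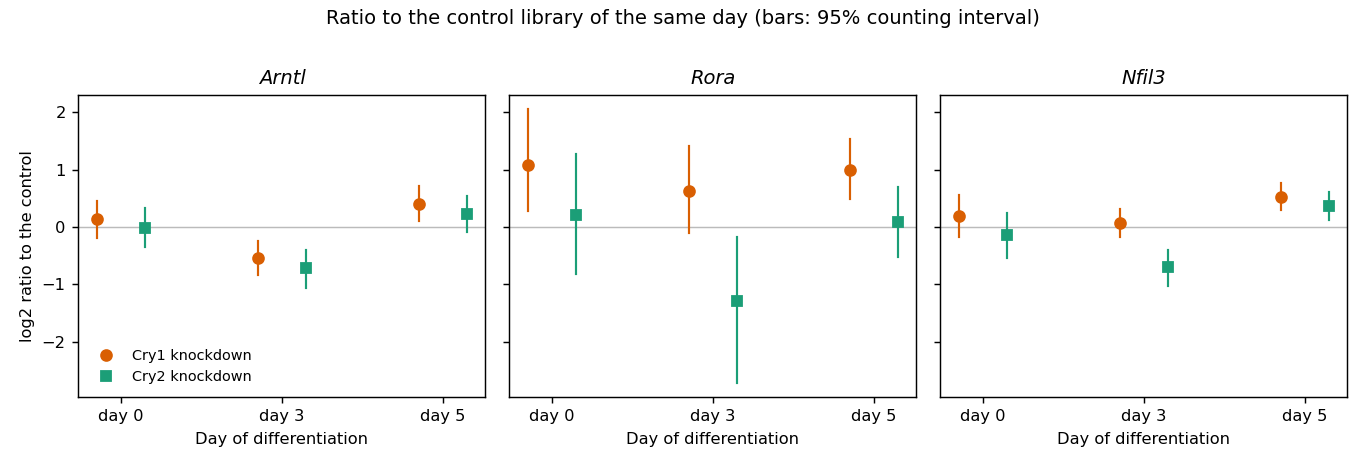
Log2 ratio to control of Arntl, Rora and Nfil3 within each day for the Cry1 and Cry2 knockdowns, with 95% intervals for counting error only and 1 library on each side. The other members are not drawn. Arntl lies below 0 at day 3 in both knockdowns, at -0.54 and -0.72, and at 0.40 and 0.22 at day 5, where the Cry2 knockdown's interval spans 0.

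Whether the change from day 0 to days 3 and 5 differed between a knockdown and control was asked in a fit of genotype by stage. No member passed the threshold for either knockdown, where 0% of 13608 genes were called for the Cry1 knockdown and 0.0367% for the Cry2 knockdown, and 670 and 818 genes had an unadjusted p under 0.05. DESeq2 called 21 and 11 genes. For Btrc the difference in response was -0.37 ± 0.23 in the Cry1 knockdown (adjusted p = 0.976), and for Rora it was -0.59 ± 0.69 in the Cry2 knockdown (adjusted p = 0.902). The intervals were wide, from -1.19 to 0.75 for Arntl in the Cry1 knockdown, with 2 residual degrees of freedom in that fit.

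Among the other genes of the positive arm (13 tested), 2 rose and 6 fell on day 5 against day 0, where 28.3% of all genes rose and 27.9% fell, with a median log2 change of -0.09 beside 0.01 for all genes. Rorb, a relative of Rora, fell by 1.02 ± 0.18 (adjusted p = 0.0012) while Rora rose. Sirt1, a deacetylase of BMAL1 and PER2, fell by 0.56 ± 0.10 (adjusted p = 0.00127), and Nampt, which makes its cofactor NAD, fell by 0.55 ± 0.10 (adjusted p = 0.00156). No gene of this list passed in either knockdown against control, where 2.67% (Cry1 knockdown) and 0.084% (Cry2 knockdown) of all genes did. Kat2b had the lowest p in the Cry1 knockdown (-0.44 ± 0.11, adjusted p = 0.0784) and Sirt1 in the Cry2 knockdown (-0.33 ± 0.10, adjusted p = 0.261). Kat2b was the 1 call of the 13 between the knockdowns, beside 7.93% of all genes. It was higher in the Cry2 knockdown (adjusted p = 0.0364), a call that held in 2 of the 9 fits without 1 library.

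Of 18 other clock kinases and phosphatases, 7 rose and 4 fell on day 5 against day 0, beside 28.3% and 27.9% of all genes, with a median log2 change of 0.17. Csnk1a1, casein kinase 1 alpha, rose by 0.83 ± 0.10 (adjusted p = 8.59e-05), where Csnk1d fell. Prkaa2, a catalytic subunit of AMPK, the kinase that marks CRY1 for degradation, rose by 3.45 ± 0.24 (adjusted p = 3.57e-06). Prkaa2 was also higher in the Cry1 knockdown than in control cells, by 1.09 ± 0.21 (adjusted p = 0.0337). It was the sole call of the list there, beside 2.67% of all genes. For the Cry2 knockdown the sole call, beside 0.084% of all genes, was Csnk1g1, casein kinase 1 gamma 1. It had 26.5, 18.2 and 19.3 CPM at days 0, 3 and 5 against 46.8, 32.9 and 33.1 CPM in control cells (-0.82 ± 0.10, adjusted p = 0.0448). The Prkaa2 call held in 2 of the 9 fits without 1 library (adjusted p 0.0149 to 0.197), and the Csnk1g1 call in 0 of 9 (0.0534 to 0.246). In the Cry2 knockdown against the Cry1 knockdown, 3.69% of all genes were called lower. There Csnk1g1 (-1.04 ± 0.10), Prkaa2 (-1.17 ± 0.21) and Ppp1cc (-0.78 ± 0.17), a catalytic subunit of protein phosphatase 1, were lower. The first of these calls held in all 9 fits without 1 library, and the other 2 in 5 of 9 each, being lost without a day 3 or day 5 library of either knockdown.

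Of 17 tested ligases and deubiquitinases, 7 rose and 3 fell on day 5 against day 0, beside 28.3% and 27.9% of all genes, with a median log2 change of 0.18. Usp2, a deubiquitinase of clock proteins, rose by 3.53 ± 0.15 (adjusted p = 2.38e-07), and Fbxw7, a ligase subunit that acts on REV-ERB alpha, rose by 1.63 ± 0.13 (adjusted p = 8.01e-06). Dtl fell by 3.63 ± 0.23 (adjusted p = 1.76e-06); it directs a CUL4 ligase in DNA replication and also acts on CRY1. Fbxw11, the nearest relative of Btrc, differed by -0.00172 ± 0.07 (adjusted p = 0.987). Fbxl21, an F-box protein, had 4 to 12 counts in each library and was below the filter of this fit. No gene of this list passed between any 2 genotypes. Of all genes, 2.67% were called in the Cry1 knockdown against control, 0.084% in the Cry2 knockdown against control and 7.93% between the knockdowns.

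The repressors and outputs that these members act on are given by count. Of 13, 9 rose and 1 fell on day 5 against day 0, beside 28.3% and 27.9% of all genes, with a median log2 change of 0.85, among them Bhlhe41 (1.05 ± 0.08), Tef (1.27 ± 0.10), Bhlhe40 (1.53 ± 0.13) and Cry2 (1.27 ± 0.16). In the Cry1 knockdown against control, Per2 (1.44 ± 0.17) and Tef (0.51 ± 0.10) were higher and Cry1 and Nr1d1 (-0.55 ± 0.12) lower, beside 2.67% of all genes called. Cry2 was the sole call of the list in the Cry2 knockdown against control, beside 0.084% of all genes. Nr1d1, the REV-ERB alpha repressor of Arntl and Nfil3, passed narrowly in the Cry1 knockdown (adjusted p = 0.0494). Over the 9 fits without 1 library, the calls against control held in 8 for Per2, 1 for Tef, 3 for Cry1 and 1 for Nr1d1 in the Cry1 knockdown, and in 6 for Cry2 in the Cry2 knockdown. In the Cry2 knockdown against the Cry1 knockdown, 1 of the 13 was higher and 4 were lower, beside 7.93% of all genes called in either direction. Those calls held in 5 to 9 of the 9 fits.

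Over the 9 libraries, the members' log2 levels varied together in some pairs and not in others, as a description with no test, since the points share day and genotype. Arntl and Nfil3 had a Pearson r of 0.859. Clock followed Csnk1e (0.832), while its r with its partner Arntl was 0.035. Csnk1d ran opposite to Nfil3 (-0.825) and to Arntl (-0.718).

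Among 10244 genes with a mean of at least 5 CPM, the nearest in pattern to each member were picked by the same r. For Clock these were Eaf1 (0.959) and Usp31 (0.953), and for Arntl Eif2s2 (0.975), a subunit of translation initiation factor eIF2, and Ssbp2 (0.957). Rora was matched by Gpatch2l (0.963) and by Phka1 (0.963), a subunit of muscle phosphorylase kinase. Nfil3 was matched by Lpar4 (0.991), a receptor for lysophosphatidic acid, and Dnaja3 (0.989), a mitochondrial cochaperone. The nearest to Csnk1d were Ppfia1 (0.976) and Sdc4 (0.975), to Csnk1e Tgfbr1 (0.959) and Cbll1 (0.956), and to Btrc Slc17a5 (0.97) and Cwf19l2 (0.969). Npas2, with a mean of 2.16 CPM, was below the minimum for this search.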

How the data were processed

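PolyA RNA was measured in 9 libraries, 1 for each genotype and day. The deposited values were raw gene counts made by the authors. The submitters' processing notes name CASAVA 1.8, HISAT2 2.0.2, Subread with featureCounts 1.4.6 and mm10; the annotation release and the strand setting are not given in the sources used here. The labels name a TruSeq RNA v2 kit.

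TMM scaling, filterByExpr and the quasi-likelihood F test of edgeR 4.0.16 were used (limma 3.58.1, R 4.3.3), with Benjamini-Hochberg adjustment over all genes tested and a threshold of 0.05. Genotype and day differences were read from 1 model with both as additive terms (13094 genes, 4 residual degrees of freedom). For responses the model let each genotype differ between day 0 and the later days, which shared a day 5 term (13608 genes, 2 residual degrees of freedom). With 1 library per genotype and day, the error is the departure from these models, not spread between replicates. The quasi-likelihood fit moderates that error across genes, so tests and intervals rest on more than the residual degrees of freedom given. SE is the absolute log2 fold change over the square root of F. Within-day ratios used a prior count of 1 and exact Clopper-Pearson 95% intervals. Names, coordinates and exon lengths came from a GENCODE annotation of mm10, and promoters from RefSeq.

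The rule for named genes was all 8 members, up to 4 genes past the threshold per list, lowest p first (2 where none passed), and the 2 genes nearest in pattern to each member. Fbxw11, Fbxl21 and the Csnk1g1 levels were added after their values were seen. Some genes that this rule names are withheld and not reported here. The members and lists were chosen with earlier results of these data known. Alternatives were RLE size factors, no filter, a filter of 1 CPM in 3 libraries, DESeq2 1.42.0, no day or no genotype term, only the 6 libraries compared, no mitochondrially encoded genes, each library left out, and a prior count of 5. Scripts were tested on simulated data.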

Additional observations from a re-analysis of the deposited data

How the results depend on the processing

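Of 959 fitted values for the members under the alternatives, 872 kept their direction and side of the threshold, 36 lost it, 6 gained it and 45 changed sign. Most of the 959 were for members not called in the fit over all 9 libraries, which had no call to lose. All 36 losses came from the few calls, so the 872 do not measure how stable the calls were. No paired analysis was possible because each genotype and day had 1 library, beyond the day term that already compares genotypes within days. The cause of each change was not tested.

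The number of members called in the Cry2 knockdown against the Cry1 knockdown (1) became 0 in DESeq2, with no day term and with only the 6 libraries compared, and ran from 0 to 1 when a library was left out. In the Cry1 knockdown against control (0) it became 1 with no filter. On day 5 against day 3 (3) it became 1 with no genotype term and ran from 2 to 4 over the left-out libraries, and on day 5 against day 0 (6) it ran from 4 to 6.

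Over all genes, the Cry1 knockdown against control called 349 genes, but 919 with no filter, 203 with only the 6 libraries compared and 0 with no day term. The Cry2 knockdown against control called 11 genes, but 316 with no filter, 90 in DESeq2, 6 with a filter of 1 CPM, 5 with only the 6 libraries and 0 with no day term. The knockdowns against each other differed in 1038 genes, but in 660 in DESeq2 and 0 with no day term. Day 5 against day 3 called 3653 genes, but 2382 in DESeq2 and 2190 with no genotype term. The response called 0 genes for the Cry1 knockdown, but 72 with no filter and 21 in DESeq2, and 5 for the Cry2 knockdown, but 48 and 11, and 1 without mitochondrially encoded genes. With a library left out, these counts ran from 27 to 366, 0 to 17, 258 to 1137 and 2045 to 3739 for the comparisons in that order, and from 0 to 126 and 5 to 160 for the responses.

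No member value that changed sign was past the threshold in the fit over all 9 libraries. In the Cry2 knockdown against the Cry1 knockdown, Csnk1d and Csnk1e took log2 values of -0.00138 and -0.00103 with RLE size factors, -0.00834 and -0.00786 with no filter, -0.000882 and -0.00064 with a filter of 1 CPM, and -0.00118 and -0.000951 in DESeq2. The response in the Cry2 knockdown became 0.00392 for Clock with no filter, and 0.0493 for Npas2 and -0.00988 for Nfil3 in DESeq2.

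When a library was left out, the log2 values that changed sign ran as follows. In the Cry1 knockdown against control, Arntl ran from -0.223 to 0.272 and Btrc from -0.169 to 0.0496. In the Cry2 knockdown against control, Arntl ran from -0.39 to 0.101, Npas2 from -0.155 to 0.933, Rora from -0.459 to 0.0666 and Nfil3 from -0.378 to 0.0906. Between the knockdowns, Npas2 ran from -0.867 to 0.306, Csnk1d from -0.0358 to 0.0409 and Csnk1e from -0.0125 to 0.033. Arntl on day 5 against day 3 ran from -0.034 to 0.408, and Clock on day 5 against day 0 from -0.0422 to 0.0242. The response in the Cry1 knockdown ran from -0.149 to 0.0246 for Clock, -0.659 to 0.27 for Arntl, -0.722 to 1.14 for Npas2, -0.249 to 0.48 for Nfil3, -0.0124 to 0.0906 for Csnk1d and -0.0798 to 0.0137 for Csnk1e. In the Cry2 knockdown it ran from -0.0968 to 0.0747 for Clock, -0.695 to 0.232 for Arntl, -0.872 to 0.938 for Npas2 and -0.446 to 0.397 for Nfil3. Without a day 0 library that genotype's response (for control, both responses) could not be fitted. Rora and Npas2 had the fewest counts among the members, 8 to 99 and 6 to 34 per library.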
